A study of Mus musculus with 6 samples.

Results

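The 10 genes described here encode subunits of voltage-gated calcium channels, and their RNA was measured in the hippocampus of mice in which the splicing factor Rbfox1 was to be upregulated in neurons. They are the 8 pore-forming subunits Cacna1a, Cacna1b, Cacna1c, Cacna1d, Cacna1e, Cacna1g, Cacna1h and Cacna1i and the 2 accessory subunits Cacna2d1 and Cacna2d2, and were found by the gene part of each isoform's name. They held 122 of the 133944 isoforms listed, and 10 of the 53354 gene symbols. RNA-seq covered the hippocampi of 3 mice per genotype, N-cre and N-cre;Fox1, all 3 months old and on a C57BL/6 background, with 1 library per mouse. N-cre mice carry the Cre recombinase under the nestin promoter and were the controls. N-cre;Fox1 mice carry this Cre as well, plus 1 allele in which Rbfox1 cDNA, placed in the Rosa26 locus behind the CAG promoter and a loxP-flanked stop cassette, is switched on by Cre. The allele was made in embryonic stem cells of another strain. The whole hippocampus was taken, so that cells in which the nestin promoter is not active are part of each sample.

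Voltage-gated calcium channels open when the membrane depolarizes and let calcium into the cell. The pore-forming subunit sets the channel type, and the alpha-2-delta subunits carry the channel to the surface and bind gabapentin. In hippocampal neurons the P/Q-type (Cacna1a) and N-type (Cacna1b) channels trigger transmitter release, the L-type channels (Cacna1c and Cacna1d) couple activity to gene expression, and the R-type (Cacna1e) and T-type channels (Cacna1g, Cacna1h and Cacna1i) shape firing. Most of these genes are alternatively spliced, and Rbfox proteins, which bind the RNA element UGCAUG in and around exons, are known to act on Cacna1c, where they repress the 75-base exon usually called 9* and promote a 33-base exon further downstream.

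Libraries held 40463587 to 62141336 expected counts, and the 10 genes took 0.147% to 0.155% of them. An expected count is RSEM's estimate of the read pairs that came from an isoform, and here values are scaled to a common depth and called normalized counts. Rbfox1 itself reached 14456 to 15286 normalized counts in N-cre against 13571 to 15939 in the libraries labelled N-cre;Fox1, so that its RNA, summed over isoforms, was not higher under that label, and directions between genotypes below are directions between labels. The neuron markers summed to 6095 to 6413 CPM, counts scaled to 1 common library total, in N-cre and 5973 to 6273 CPM in libraries labelled N-cre;Fox1. Choroid plexus markers, which define a tissue beside the hippocampus, summed to 2276 in N-cre replicate 3 and 5191 in N-cre;Fox1 replicate 2, against 27.1 to 37.4 in the other 4 mice. Astrocyte markers summed to 3491 to 3594 CPM in N-cre against 3775 to 4010 CPM in N-cre;Fox1 mice, and CA1 pyramidal markers to 602 to 665 and 556 to 596, both without overlap. In such whole-tissue samples, fewer cells of a type and less RNA per cell cannot be told apart.

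The sequences that the splicing results rest on are given first, from GENCODE transcripts of GRCm38 (mm10), 5′ to 3′ on the sense strand. Among the Cacna1c exons, the 75-base exon (chr6:118715903-118715977, minus strand) and the 84-base exon (chr6:118637730-118637813) hold the Rbfox element, and so does the 84-base exon at the same place in the related Cacna1d (chr14:30089296-30089379, minus strand). Capitals mark TGCATG, the DNA form of this element.
Cacna1c 75-base exon: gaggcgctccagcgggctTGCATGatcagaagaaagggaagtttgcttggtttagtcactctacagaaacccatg
Cacna1c 84-base exon: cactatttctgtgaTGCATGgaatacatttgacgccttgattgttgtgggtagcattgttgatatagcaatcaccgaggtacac
Cacna1d 84-base exon: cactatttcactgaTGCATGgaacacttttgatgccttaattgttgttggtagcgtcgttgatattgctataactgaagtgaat
In both 84-base exons the element starts at base 15, and in the 75-base exon at base 19. Of all 18474 alternative exons of all genes that were measured, 3.95% held TGCATG, and 4.19% held the same letters on the opposite strand. Among exons within 10 bases of their own length the share was 1.73% for the 75-base exon and 2.21% for the 84-base exons. The 3 named exons were the only ones of 41 in the 10 genes to hold it, and none held it on the opposite strand. A match of letters is a description and not a site of binding.

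The 33-base exon of Cacna1c (chr6:118630399-118630431) has no TGCATG itself, but the element lies in the intron behind it. This intron was read only as far as the longer exon of isoform Cacna1c-204 covers it, that is the 174 bases at chr6:118630225-118630398, in which TGCATG starts at base 112.
Cacna1c 33-base exon: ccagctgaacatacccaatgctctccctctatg
Bases behind it: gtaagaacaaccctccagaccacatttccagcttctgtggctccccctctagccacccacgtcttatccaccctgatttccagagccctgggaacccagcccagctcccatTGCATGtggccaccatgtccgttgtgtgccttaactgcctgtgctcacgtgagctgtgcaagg
Of 2888 such stretches of 174 bases behind alternative exons of all genes, 7.38% held TGCATG and 4.19% the same letters on the opposite strand. Other intron sequence was not read here.

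A further exon matters for the comparison of the genotypes. It is the 108-base exon of Cacna1b (chr2:24618255-24618362, minus strand), exon 40 of 47 of isoform Cacna1b-204, which is coding and adds 36 codons in frame to the part of the channel that faces the cytoplasm near its C-terminus. It holds TGCATG on neither strand.
Cacna1b 108-base exon: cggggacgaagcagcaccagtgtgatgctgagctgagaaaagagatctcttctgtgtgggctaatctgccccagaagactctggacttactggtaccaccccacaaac
Paired exons that replace each other are a feature of the family. There were 8 pairs of neighbouring exons of equal length over 30 bases in 5 of the genes, and 6 of the pairs occur together in no annotated isoform. In the 104-base pair of Cacna1c, which encodes the end of the first channel domain, capitals mark the 32 bases that differ, which leaves an identity of 69.2%.
Cacna1c 104-base exon, 5′ copy (chr6:118742265-118742368): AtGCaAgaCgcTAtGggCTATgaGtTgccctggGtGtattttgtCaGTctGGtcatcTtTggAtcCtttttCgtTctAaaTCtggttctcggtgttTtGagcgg
Cacna1c 104-base exon, 3′ copy (chr6:118741871-118741974): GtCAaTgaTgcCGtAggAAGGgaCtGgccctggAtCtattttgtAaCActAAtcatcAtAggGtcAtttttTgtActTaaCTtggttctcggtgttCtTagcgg
The matching pair of Cacna1d was 78.8% identical, and the 97-base pairs of Cacna1a, Cacna1b and Cacna1e were 61.9%, 58.8% and 62.9% identical.

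To compare levels between genes, counts were divided by isoform length and scaled to the same total in each mouse, as TPM. All 10 genes were detected in every mouse, and their summed level was 552 ± 11.2 TPM (SD, n = 6). Cacna1a was the highest at 109 ± 4.29 TPM, 5.03 times the level of Cacna2d2, the lowest at 21.6 ± 4.09 TPM (SD, n = 6 each). Among the T-type genes, Cacna1h reached 82.2 ± 6.93, Cacna1g 73.5 ± 4.25 and Cacna1i 30.2 ± 1.57 TPM. Cacna1e stood at 57.0 ± 1.35, Cacna2d1 at 55.9 ± 1.94 and Cacna1b at 50.3 ± 1.61 TPM. The L-type genes were lower, at 42.2 ± 1.46 TPM for Cacna1d and 30.2 ± 1.39 TPM for Cacna1c. Neighbours in this order overlapped in their ranges over the 6 mice for Cacna1h and Cacna1g, Cacna1e and Cacna2d1, Cacna2d1 and Cacna1b, and Cacna1i and Cacna1c, and the other neighbours did not overlap.

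**Figure D1:**
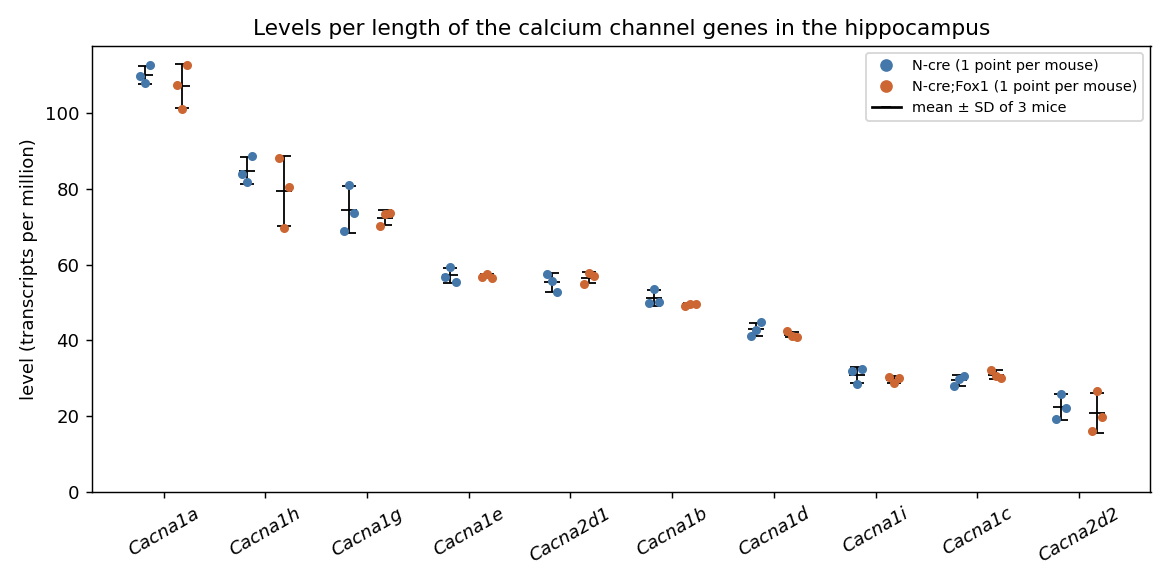
Level of each gene in TPM (isoform counts per length), with 1 point per mouse and the mean ± SD of 3 mice per genotype. Cacna1a is the highest gene at 101 to 113 TPM and Cacna2d2 the lowest at 16.1 to 26.7 TPM, and the genotypes overlap in all 10 genes.

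The first comparison asks whether the sum over the isoforms of a gene differed between the genotypes. None of the 10 genes did by edgeR's quasi-likelihood test at an adjusted p under 0.05, where 0.0264% of all 18924 genes passed, and none had an unadjusted p under 0.05, where 6.19% of all genes had one. DESeq2 and limma-voom called none either. The genotypes overlapped in all 10 genes, while 12.1% of all genes had no overlap. The log2 fold changes, N-cre;Fox1 over N-cre, lay between -0.10 and 0.06, with 3 above and 7 below 0, and their median was -0.02, against a median of 0.00 over all genes.

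Of the genes for transmitter release, Cacna1a had 9162, 9045 and 9079 normalized counts in N-cre and 9350, 8265 and 9274 in N-cre;Fox1 mice. Cacna1b had 7944, 8644 and 8222 in N-cre and 8391, 7672 and 8305 in N-cre;Fox1 mice. In both genes N-cre;Fox1 replicate 2 was the lowest mouse. The 95% confidence interval of the log2 fold change was -0.13 to 0.08 for both, which corresponds to 0.917 to 1.06 times the control level for Cacna1a and 0.916 to 1.05 times for Cacna1b.

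Of the L-type genes, Cacna1c had 7334, 7669 and 7803 normalized counts in N-cre and 8252, 7680 and 7907 in N-cre;Fox1 mice. For Cacna1c this gave a log2 fold change of 0.06, with an interval from -0.02 to 0.15, and 2 of the 3 N-cre;Fox1 mice lay above every control. With each mouse left out it ran from 0.041 to 0.090, the latter without N-cre;Fox1 replicate 2 (unadjusted p = 0.0446, adjusted p = 0.738, edgeR), and without both mice of high choroid plexus counts it was 0.11 (unadjusted p = 0.0271, adjusted p = 0.802, edgeR). Cacna1c lies 5.51 Mb from the Rosa26 locus on chromosome 6, so that a flanking allele inherited with the transgene and the transgene itself cannot be told apart for this gene. Cacna1d had 3817 to 3883 normalized counts in N-cre against 3627 to 3899 in N-cre;Fox1 mice.

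Of the R-type and T-type genes, Cacna1e had 17511 to 18860 normalized counts in N-cre against 17845 to 18085 in N-cre;Fox1 mice. Cacna1g had a log2 fold change of 0.00 and an interval from -0.09 to 0.09. Cacna1i had the smallest unadjusted p of the 10 genes, 0.0990 (adjusted p = 0.845, edgeR), at a log2 fold change of -0.08. Cacna1h varied more within N-cre;Fox1 mice, with 12717, 9294 and 10827 normalized counts, than in N-cre mice, with 11203, 11228 and 11761. Without N-cre;Fox1 replicate 1 its log2 fold change was -0.18 (adjusted p = 0.479, edgeR), and without replicate 2 of that genotype it was 0.05.

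Of the alpha-2-delta genes, Cacna2d1, which codes for the main gabapentin-binding subunit, had 7818 to 8720 normalized counts in N-cre against 8239 to 8443 in N-cre;Fox1 mice. Cacna2d2 had 2103, 2624 and 2287 in N-cre and 1748, 2804 and 1972 in N-cre;Fox1 mice. Its highest value, in N-cre;Fox1 replicate 2, was in the mouse with the most choroid plexus RNA, while the next, in N-cre replicate 2, was in a mouse with 37.4 CPM of those markers. The 8 thalamic markers summed to 122, 157 and 140 CPM in N-cre and 111, 168 and 114 CPM in N-cre;Fox1 mice, the same order of the 6 mice as Cacna2d2. Single markers did not all keep this order. Zic1 did, while Slc17a6 was highest in N-cre replicate 1 (1126 normalized counts) and Tcf7l2 in N-cre;Fox1 replicate 3 (165). This comparison was made after the values were seen, when any of 13 cell type lists could have been compared. The part of choroid plexus or thalamic RNA in the value was not tested. Without N-cre;Fox1 replicate 2 the log2 fold change of Cacna2d2 moved from -0.10 to -0.33 (adjusted p = 0.657, edgeR). The interval over all mice ran from -0.68 to 0.48, so that any level between 0.624 and 1.39 times that of the controls lies within it.

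**Figure D2:**
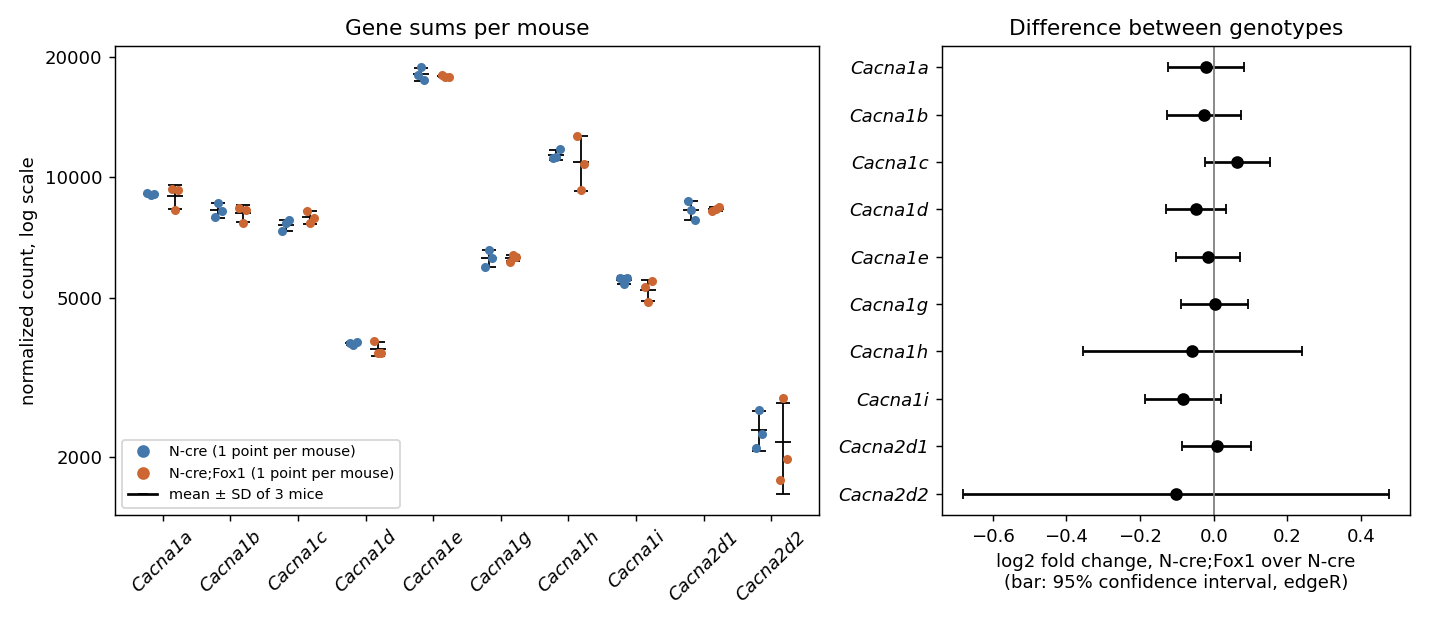
Left, normalized counts of each gene on a log axis, with 1 point per mouse and the mean ± SD of 3 mice. Right, log2 fold change of N-cre;Fox1 over N-cre with its 95% confidence interval from edgeR. Every interval includes 0, and those of Cacna1h and Cacna2d2 are the widest.

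Genes that work with these channels were followed in 4 lists, which held other channel subunits, gamma subunits and related receptor-binding proteins, proteins that bind the channels, and genes of calcium release and extrusion. None of their 49 measured members passed the adjusted threshold of edgeR, and 2 had an unadjusted p under 0.05, which is 4.08% against 6.19% of all genes. Gem, a small GTPase that holds calcium channels back from the surface, had 68.7, 91.2 and 82.4 normalized counts in N-cre and 80.8, 163 and 146 in N-cre;Fox1 mice (log2 fold change 0.69, adjusted p = 0.777, edgeR), and its lowest N-cre;Fox1 value lay among the controls. Ryr2, the calcium release channel of the endoplasmic reticulum, had 12247, 12501 and 11766 in N-cre and 13142, 12891 and 12894 in N-cre;Fox1 mice (log2 fold change 0.09, adjusted p = 0.777, edgeR). The gamma subunit list summed to 361 to 365 CPM in N-cre against 347 to 356 CPM in N-cre;Fox1 mice, without overlap, and 0 of its 7 measured members had an unadjusted p under 0.05. Of 91 measured cell type markers, 8 were higher and 4 lower at an unadjusted p under 0.05 in edgeR, together 13.2% against 6.19% of all genes, and none at an adjusted p. They were the astrocyte genes Gfap, Aqp4, Slc1a2 and Gja1, the dentate granule genes C1ql2 and Trpc6, the CA3 gene Nectin3 and the oligodendrocyte gene Mobp on the higher side, and the interneuron gene Vip, the thalamic gene Slc17a6 and the striatal genes Adora2a and Rgs9 on the lower side. Other markers of the same lists went the other way, with 5 of 7 astrocyte, 5 of 7 dentate granule and 3 of 7 oligodendrocyte fold changes above 0, and 5 of 8 thalamic and 6 of 7 striatal ones below 0. Of 12 activity genes, which neurons switch on when they fire, 3 were higher at an unadjusted p under 0.05 in edgeR, namely Fosb, Fosl2 and Egr4. Of all genes 6.19% had such a p, and none of the 12 passed at an adjusted p. All 12 had a log2 fold change above 0, with a median of 0.44. The list summed to 681 to 757 CPM in N-cre and 729, 1057 and 1136 in N-cre;Fox1 mice, which overlapped. The part of these shifts in the values of the channel genes was not tested.

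Isoforms of the 10 genes were then compared one by one. Of the 122 isoforms, 27 were listed at 0 in all mice and 55 passed the filter on low counts. No isoform of these passed an adjusted p under 0.05 in edgeR, where 0% of all 50556 isoforms tested did, and none did in DESeq2 or limma-voom. At an unadjusted p under 0.05 there was 1, Cacna1b-202, or 1.82% of the 55, against 4.78% of all isoforms. The genotypes did not overlap in the counts of 4 member isoforms, which is 7.27%, against 11.5% of all isoforms. Besides Cacna1b-202 these were Cacna1b-204, Cacna1g-206 and the short Cacna2d1-207, which had 8.71, 7.26 and 10.6 normalized counts in N-cre and 10.99, 12.2 and 22.0 in N-cre;Fox1 mice.

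In 5 of the genes 1 isoform took nearly all counts. Cacna1e-203 took 99.9% of the counts of its gene on average, Cacna1i-202 98.6%, Cacna2d1-202 96.2% and Cacna1h-205 95.2%. Cacna1c-207 took 95.02%, 92.6% and 93.7% in N-cre and 93.7%, 93.6% and 94.9% in N-cre;Fox1 mice, although 27 isoforms of this gene are annotated, of which 13 were at 0 in every mouse. The model is 13162 bases long, of which 5064 belong to no other isoform, and per length its share fell to 86.5% ± 1.80 in N-cre and 86.7% ± 2.10 in N-cre;Fox1 mice (SD, n = 3). The next Cacna1c isoform, Cacna1c-216, held 3.66% to 5.63% of the counts.

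Other genes were divided between isoforms. Cacna1a-211 held 47.9%, 41.4% and 47.2% of Cacna1a in N-cre and 47.2%, 46.4% and 41.6% in N-cre;Fox1 mice, and Cacna1a-201 held 38.2%, 44.8% and 38.0% against 41.8%, 40.4% and 44.3%. The isoforms share 7503 bases, and Cacna1a-201 has 423 more, most of them at the 5′ end, so that reads from elsewhere fit both. Cacna2d2 was split between a pair of isoforms, with 46.8% ± 2.00 on Cacna2d2-208 and 49.0% ± 2.22 on Cacna2d2-202 in N-cre and 49.9% ± 3.90 and 46.2% ± 1.83 in N-cre;Fox1 mice (SD, n = 3). Cacna1g was spread most widely, with 12 of its 16 isoforms above the filter and 43.6% of the counts on Cacna1g-203, 18.9% on Cacna1g-211 and 13.2% on Cacna1g-207.

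Cacna1d differed from the other genes in the kind of isoform. Retained-intron models, which hold unspliced introns and code for no protein, took 70.3% to 73.2% of its counts in N-cre against 68.1% to 70.8% in N-cre;Fox1 mice, and its protein coding models took 24.6% ± 1.23 and 26.1% ± 2.36 (SD, n = 3). The retained-intron counts fell mostly on Cacna1d-212 (37.6%) and Cacna1d-203 (31.1%), and coding counts on Cacna1d-207 (20.6%). In Cacna1a retained-intron models held 7.93%, and in the other 8 genes at most 2.75%. The models also end at different bases. On the minus strand, Cacna1d-207 ends at base 30042067, while Cacna1d-212 and Cacna1d-203 reach 30039939 and 30039949. Cacna1d-212 has 2347 bases that Cacna1d-207 lacks, of which 221 are in no other isoform. The share of these models is thus not the share of unspliced RNA. Total RNA, from which these libraries were made, includes unspliced RNA. The part of unspliced RNA or of the model ends in this share was not tested.

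**Figure D3:**
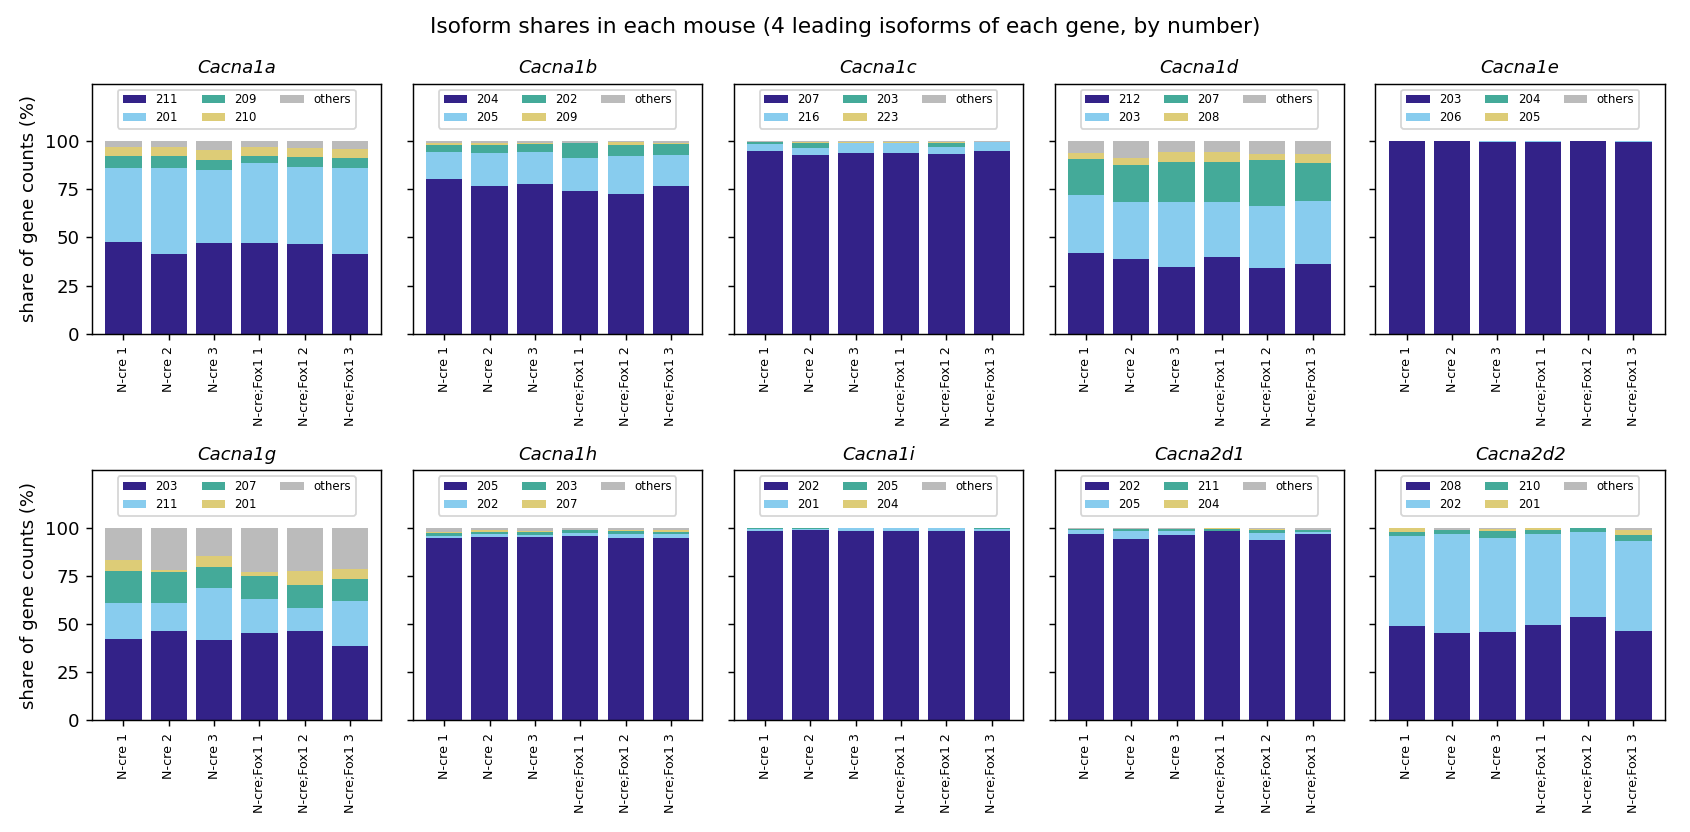
Share of each gene's counts on its 4 leading isoforms in each mouse, in percent, with all other isoforms in grey. Cacna1c, Cacna1e, Cacna1h, Cacna1i and Cacna2d1 rest on 1 isoform in all 6 mice, Cacna1a, Cacna1d, Cacna1g and Cacna2d2 on several.

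Within genes, the use of an isoform relative to the other isoforms was tested for 54 member isoforms. None passed an adjusted p under 0.05 in edgeR's diffSpliceDGE, against 0.214% of all 42441 isoforms, and none did in limma's diffSplice. On simulated data, most calls of diffSpliceDGE fell on isoforms that had not themselves been changed. Other isoforms of a changed gene, whose relative use shifts as well, were scored as unchanged there, so the rate of false calls is not known. At an unadjusted p under 0.05 there were 3, or 5.56%, against 1.81% of all, and 3 isoforms (5.56%) had shares that did not overlap between the genotypes, against 11.2% of all. Those with an unadjusted p under 0.05 were Cacna1b-202, Cacna1d-201 and Cacna1g-206, and those without overlap Cacna1b-202, Cacna1g-206 and Cacna1h-202. Cacna1d-201 held 4.62%, 3.04% and 0% of Cacna1d in N-cre and 0%, 0.479% and 0% in N-cre;Fox1 mice, so that the groups shared values of 0, and it passed (adjusted p = 0.00760, diffSpliceDGE) only once both mice with high choroid plexus counts were left out. Cacna1g-206 held 0%, 1.59% and 1.38% of Cacna1g in N-cre and 1.71%, 10.1% and 2.18% in N-cre;Fox1 mice, where the value of 10.1% came from replicate 2. Cacna1h-202 made up 1.302% ± 0.198 of its gene in N-cre and 1.82% ± 0.156 in N-cre;Fox1 mice (SD, n = 3), with an unadjusted p of 0.334 in diffSpliceDGE.

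Cacna1b-202 was the 1 member isoform with an unadjusted p under 0.05 in both the counts and the use, where its p of 0.0295 (diffSpliceDGE) was the largest of the 3. It had 294, 369 and 323 normalized counts in N-cre and 615, 471 and 461 in mice labelled N-cre;Fox1, which did not overlap. The log2 fold change was 0.65 (SE 0.154), with an unadjusted p of 0.00497 and an adjusted p of 0.835 in edgeR, and it lay between 0.50 and 0.74 when each mouse was left out in turn. The adjusted p ranged from 0.0880, in DESeq2, to 1.00 over the 16 alternatives, so that the difference did not pass the correction in any of them. As a share of Cacna1b the isoform held 3.70%, 4.27% and 3.93% in N-cre and 7.33%, 6.13% and 5.56% in N-cre;Fox1 mice. The 95% Wilson interval of the highest control ended at 4.75% and that of the lowest N-cre;Fox1 mouse began at 5.11%. These intervals take expected counts as observed reads. They leave out the error of dividing shared reads between isoforms, so they are too narrow to set against this gap. By the exact permutation test over mice the two-sided p was 0.1, the smallest that 3 against 3 can give. The summed astrocyte and CA1 lists did not overlap between the genotypes either, and their part in this value was not tested. Without both mice of high choroid plexus counts the log2 fold change was 0.70.

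Most of Cacna1b fell on Cacna1b-204, with 6400, 6621 and 6385 normalized counts in N-cre and 6224, 5583 and 6383 in N-cre;Fox1 mice. These values did not overlap, with 6385 and 6383 as the nearest of both groups, and the share of this isoform did overlap (78.2% ± 1.99 against 74.6% ± 2.18, SD, n = 3). Cacna1b-205 held 16.1% ± 1.83 and 17.6% ± 1.79. Relative to Cacna1b-204, Cacna1b-202 came to 5.08% ± 0.488 in N-cre and 8.51% ± 1.33 in N-cre;Fox1 mice. The models share 9625 bases. Cacna1b-202 lacks 111 bases of Cacna1b-204, of which 108 are the exon shown above, and has 30 bases at its ends that are in no other isoform, so reads from any of these stretches bear on its estimate.

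**Figure D4:**
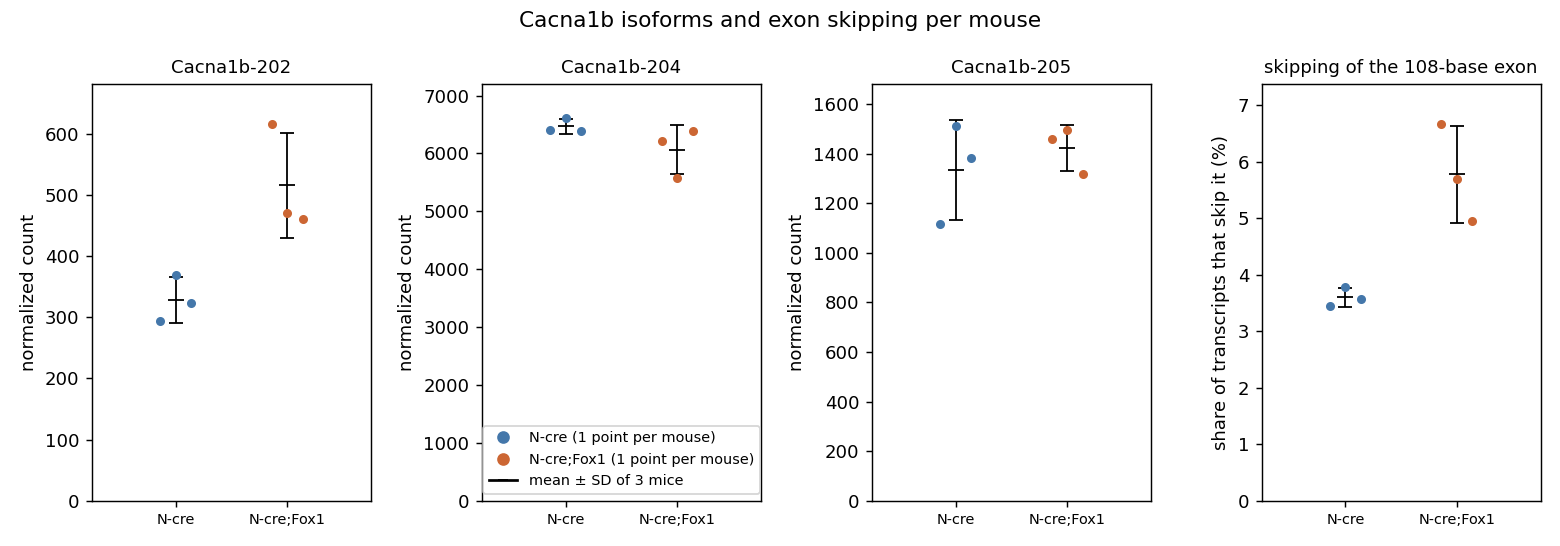
Normalized counts of 3 Cacna1b isoforms and, at the right, the share of transcripts that skip the 108-base exon, with 1 point per mouse and the mean ± SD of 3 mice. For Cacna1b-202 and for skipping, all N-cre;Fox1 points lie above all N-cre points, and for Cacna1b-205 the genotypes overlap.

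Isoforms that share a splicing choice were then pooled, and the share of transcripts per length that include an exon was computed for 41 alternative exons of 6 to 135 bases in 9 of the genes. No exon passed an adjusted p under 0.05 in limma, against 0.271% of all 18474 exons, and 1 had an unadjusted p under 0.05 (2.44%), against 3.5% of all. The genotypes did not overlap in 1 exon (2.44%), against 7.5% of all. It was the same exon in both cases, the 108-base exon of Cacna1b. It was included in 96.6%, 96.2% and 96.4% of transcripts in N-cre and in 93.3%, 94.3% and 95.05% in N-cre;Fox1 mice, so that skipping came to 3.60% ± 0.168 and 5.77% ± 0.862 (SD, n = 3). The difference on the log2 odds scale was -0.70 with a standard error of 0.178 (unadjusted p = 0.0102 and adjusted p = 0.851, limma). Since Cacna1b-202 is the 1 isoform that skips it, this value and the isoform's count are the same evidence. Without N-cre replicate 2, 1 exon passed the adjusted threshold, a 27-base exon of Cacna1d (adjusted p = 0.0300, limma) whose inclusion was 100%, 98.5% and 100% in N-cre and 97.3%, 98.6% and 97.8% in N-cre;Fox1 mice. The mouse left out was the only control with any skipping. Cacna1d-209 is the 1 isoform that skips it. Cacna1d-209 and Cacna1d-201 have the same ends, are 8041 and 8068 bases long, and neither has bases of its own. This value and the use of Cacna1d-201 are therefore not separate evidence.

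For the Cacna1c exons known as Rbfox targets no difference was detected in these libraries. The 75-base exon was included in 6.53%, 7.13% and 9.02% of transcripts in N-cre and in 9.93%, 6.54% and 7.82% in N-cre;Fox1 mice, so that the ranges overlapped almost wholly (log2 odds difference 0.10, standard error 0.251, adjusted p = 0.924, limma). The 33-base exon was included in 99.9% of transcripts in both genotypes, which leaves little room for a rise in this measure. Inclusion was read from whole annotated models, and Cacna1c-207, which holds the exon, took 93.9% of the counts on average. Skipping in transcripts that no annotated model describes would not be counted, and neither would inclusion of the 75-base exon in such transcripts. The 84-base exon with TGCATG was included in 7.84%, 11.6% and 9.75% in N-cre and in 9.80%, 10.01% and 8.40% in N-cre;Fox1 mice, and its partner exon in 90.4% ± 1.76 and 90.7% ± 0.983 (SD, n = 3). The 5′ copy of the 104-base pair was included in 92.3% ± 1.43 and 91.8% ± 1.66, and the 3′ copy in 7.72% ± 1.43 and 8.22% ± 1.66 (SD, n = 3). The 60-base pair gave 7.65% ± 1.36 and 8.12% ± 1.59 for its 5′ copy and 92.3% ± 1.35 and 91.8% ± 1.62 for its 3′ copy. The 75-base exon and the minor copies of the 104-base and 60-base pairs had close values in each mouse, as most of each came from Cacna1c-216, so they count as close to 1 measurement. The 84-base exon with TGCATG is also in Cacna1c-203, which held 2.54% of the counts in N-cre replicate 2 and 2.08% in N-cre;Fox1 replicate 2, and its order of the mice was another.

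In Cacna1d the 84-base exon with TGCATG was included in 8.30%, 8.63% and 12.01% in N-cre and in 12.4%, 6.94% and 11.2% in N-cre;Fox1 mice, and its partner exon in 88.8% ± 4.66 and 89.8% ± 2.87 (SD, n = 3). The 3′ copy of its 104-base pair was included in 79.8% ± 6.62 in N-cre and 83.1% ± 5.06 in N-cre;Fox1 mice, the reverse of the preference in Cacna1c, whose 3′ copy was the minor one in all 6 mice. Inclusion of its 45-base exon was 82.1% ± 2.44 and 86.0% ± 2.19 and of its 60-base exon 80.7% ± 5.54 and 83.7% ± 1.66 (SD, n = 3 each).

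In Cacna1a the 97-base exons that encode alternative forms of an EF-hand region near the C-terminus were included in 48.5% ± 0.820 (5′ copy) and 37.0% ± 2.68 (3′ copy) in N-cre and in 50.1% ± 1.60 and 37.8% ± 1.27 in N-cre;Fox1 mice (SD, n = 3). The 3′ copy was measured by 1 short noncoding model of 549 bases, Cacna1a-210, which held 4.70% of the counts, so that its share rests on the division by length. A 66-base exon of Cacna1a was included in 79.98% ± 1.97 and 83.4% ± 3.29, and a 128-base exon in 85.4% ± 1.94 and 87.9% ± 2.66. Each was skipped by 1 model, Cacna1a-209, a retained-intron model of 1742 bases with 5.32% of the counts. These shares rest on the division by length too, and they are not separate measurements. In Cacna1b the 3′ copy dominated, at 94.0% ± 1.49 and 94.7% ± 2.19. The 12-base exon of Cacna1b was included in 21.4% ± 2.28 and 23.2% ± 2.23, and the 6-base exon in 78.6% ± 2.28 and 76.8% ± 2.23, and both were read from the same isoforms.
Cacna1b 12-base exon (chr2:24656711-24656722): gagcttcatggg
Cacna2d2 21-base exon (chr9:107519179-107519199, plus strand): tgccaatcagcaaactgaagg
These small exons are shown because they add 4 and 7 codons in frame, while the 6-base exon adds 2. The 21-base exon of Cacna2d2 was included in 48.7%, 53.8% and 51.4% of transcripts in N-cre and in 49.0%, 45.6% and 50.04% in N-cre;Fox1 mice, closest of these exons to an equal split. In the T-type gene Cacna1g a 54-base exon was included in 74.8% ± 5.82 and 74.4% ± 3.50, a 69-base exon in 89.98% ± 0.470 and 90.3% ± 1.80, and a 135-base exon in 11.6% ± 2.46 and 9.77% ± 0.261 (SD, n = 3). In 26 of the 27 exons described the genotypes overlapped.

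**Figure D5:**
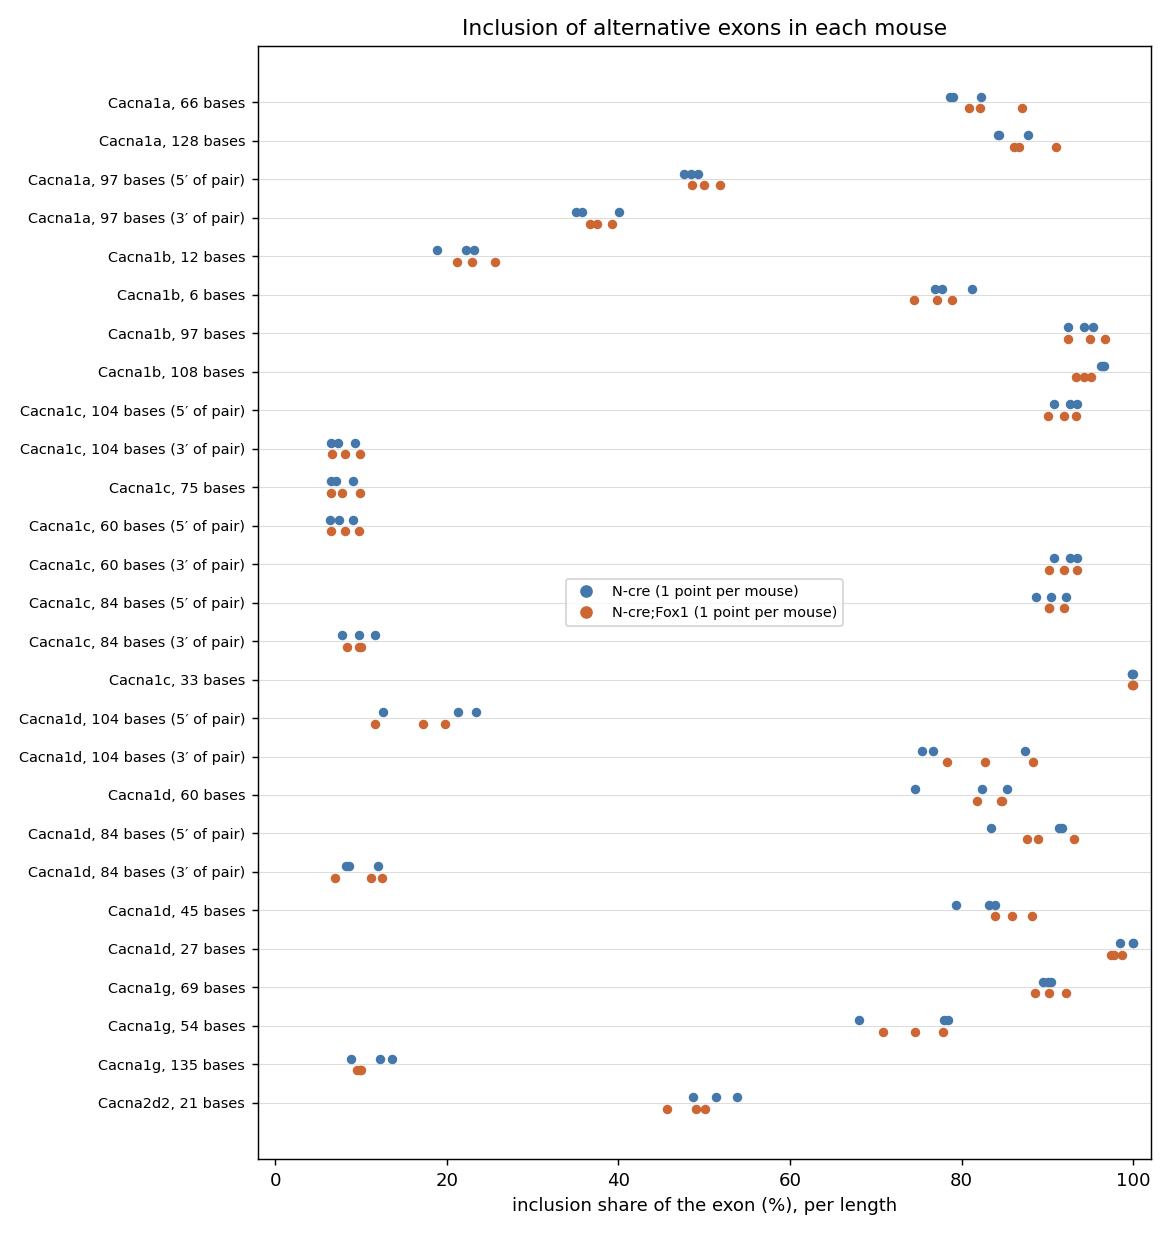
Inclusion share of each exon in percent of transcripts, with 1 point per mouse. The 108-base exon of Cacna1b is the 1 exon in which the N-cre points, at 96.2% to 96.6%, lie apart from the N-cre;Fox1 points, at 93.3% to 95.05%, and the 75-base exon of Cacna1c lies between 6.53% and 9.93% in both genotypes together.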

How the data were processed

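RNA of 6 hippocampi was sequenced as paired reads from stranded total RNA. The authors used Cutadapt 1.18 for trimming, STAR 2.5.2b for mapping (mm10) and RSEM 1.3.0 with a GENCODE annotation for isoform levels, and deposited the expected counts of each isoform, which are not normalized. Here expected counts were rounded, for genes after they had been summed by gene symbol. Low counts were removed (filterByExpr, minimum count 10, minimum total count 15), and genotypes were compared with edgeR 4.0.16 in R 4.3.3 (quasi-likelihood test, robust, TMM, genotype as the only term, threshold 0.05 after Benjamini-Hochberg adjustment over all features tested). The authors' tool EBSeq was not used. Isoform use was tested with diffSpliceDGE, most of whose calls on simulated data fell on isoforms that had not themselves been changed. Exon inclusion was tested with limma 3.58.1 on the log2 odds of isoform abundance per length (offset 0.5, at least 20 counts on average).

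Exons, lengths and sequences came from a later GENCODE annotation of the same build, which held all 122 member isoforms. The members and lists were chosen with earlier results of these data known. Named were all 10 genes, isoforms with at least 10% of a gene's counts or an unadjusted p under 0.05 in the isoform or use test, exons with a mean inclusion from 5% to 95%, Cacna1c exons with TGCATG beside them and list members with an unadjusted p under 0.05. The 108-base exon of Cacna1b, the 27-base exon of Cacna1d and the isoforms Cacna1h-202, Cacna2d1-207 and Cacna1c-216 were named after their values were seen. So were the isoforms Cacna1a-209 and Cacna1d-209 and the thalamic markers Zic1 and Tcf7l2. Exact permutation tests used SciPy 1.17.1. Each library was 1 mouse, and litters are not given in the sources used here. The alternatives were DESeq2 1.42.0, limma-voom, other size factors and filters, counts not rounded, coding isoforms only, a term for high Xist counts, a replicate block, each mouse left out and, added after seeing the data, both mice with high choroid plexus counts left out. Intervals of shares take expected counts as observed reads and cover counting error only, without the error of dividing shared reads between isoforms.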

Additional observations from a re-analysis of the deposited data

How the results depend on the processing

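Every count of channel genes and isoforms past the adjusted threshold was 0 under all alternatives run. For isoform use it was 0 except for 1, Cacna1d-201, without both mice of high choroid plexus counts. For exon inclusion it was 0 to 1 with each mouse left out, where the 1 came without N-cre replicate 2. Both bear on how reads were divided between Cacna1d-201 and Cacna1d-209, and the cause of neither was tested. Among single values, 151 of 170 for genes, 291 of 318 for isoforms, 30 of 31 for isoform use and 256 of 290 for exons kept their direction and their side of the threshold. The summed level was 511 TPM with lengths shortened by 200 bases, as less length to divide by raises the share of short isoforms.

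In their deviations from the mean of their genotype, same-numbered mice correlated at r = 0.38, -0.095 and -0.21. Replicate 1 alone correlated best with its own number. With 3 mice per genotype these deviations depend on each other, so the check cannot exclude that replicate numbers pair the mice. With a replicate block the counts stayed at 0, Cacna1b-202 had a log2 fold change of 0.64, and Cacna2d2-208 turned to -0.038.

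No value that changed its sign passed the adjusted threshold, but Cacna2d2-208 had an unadjusted p of 0.0174 in edgeR without N-cre;Fox1 replicate 2, at -0.30, and of 0.0300 without both mice of high choroid plexus counts. Of the gene sums, which had no unadjusted p under 0.05, Cacna1c reached one in 2 alternatives, Cacna1i in 2, with a replicate block and without N-cre;Fox1 replicate 3, and Cacna1h and Cacna2d2 in 1 each, with 1 mouse of that genotype left out. With upper quartile normalization Cacna1g came to -0.0074, Cacna2d1 to -0.0013 and Cacna2d2-208 to -0.0098. With protein coding isoforms alone Cacna1d came to 0.031, the 97-base exon of Cacna1b to -2.24 and the 104-base exons of Cacna1d to -1.36 and 1.36. Cacna1g-203 came to 0.0030 with no filter, 0.00033 with at least 10 counts in every mouse, 0.0053 with limma-voom and 0.00083 with a term for Xist, and Cacna2d2-208 to -0.028 with limma-voom and -0.0096 with that term. The 5′ 84-base exon of Cacna1d came to -0.029 with counts in place of abundance. Without both mice of high choroid plexus counts, which was chosen after seeing the data, Cacna1a came to 0.035, Cacna1b to 0.012, Cacna1g to -0.0036, Cacna1h to 0.072, Cacna2d1 to -0.027, Cacna1a-211 to 0.019, Cacna1g-211 to 0.32, Cacna1h-205 to 0.068, Cacna2d1-202 to -0.0038, Cacna2d2-208 to -0.32, the 97-base exon of Cacna1b to -0.052 and the 5′ 84-base exon of Cacna1d to -0.53.

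With each mouse left out, log2 fold changes ran from -0.048 to 0.036 for Cacna1a, -0.050 to 0.016 for Cacna1b, -0.036 to 0.017 for Cacna1e, -0.028 to 0.040 for Cacna1g, -0.18 to 0.049 for Cacna1h, -0.027 to 0.053 for Cacna2d1 and -0.33 to 0.037 for Cacna2d2. For isoforms they ran from -0.022 to 0.12 for Cacna1a-201, -0.11 to 0.0039 for Cacna1a-211, -0.025 to 0.19 for Cacna1b-205, -0.042 to 0.013 for Cacna1e-203, -0.067 to 0.086 for Cacna1g-203, -0.44 to 0.11 for Cacna1g-211, -0.19 to 0.045 for Cacna1h-205, -0.022 to 0.061 for Cacna2d1-202 and -0.30 to 0.15 for Cacna2d2-208. Log2 odds of inclusion ran from -0.0044 to 0.15 for the 3′ 97-base exon of Cacna1a and -0.082 to 0.56 for that of Cacna1b. In Cacna1c they ran from -0.21 to 0.11 and -0.10 to 0.20 for the 84-base exons, -0.24 to 0.068 and -0.063 to 0.25 for the 60-base exons, -0.072 to 0.26 for the 75-base exon, and -0.065 to 0.25 and -0.25 to 0.065 for the 104-base exons. They ran from -0.12 to 0.34 and -0.25 to 0.32 for the 84-base exons and -0.0077 to 0.48 for the 60-base exon of Cacna1d, and from -0.29 to 0.093 for the 54-base and -0.094 to 0.21 for the 69-base exon of Cacna1g. The Wilson intervals of the 3 N-cre shares of Cacna1b-202 overlapped. This does not measure the spread among mice, and the intervals leave out the error of dividing shared reads between isoforms.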
